A study of Mus musculus with 6 samples.

Results

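Open chromatin at the genes of the cytosolic ribosomal proteins was examined in mouse lung fibroblasts grown on a soft, a stiff and a rigid surface. The members were the regions whose deposited gene name was Rpl or Rps with a number and at most a short ending (a, x, l, p or l1), or Rplp0, Rplp1, Rplp2 or Rpsa. Rps6k kinases and pseudogene names were left out, and a region had to lie within 100000 bases of the transcription start site (TSS). The table of 32 kPa PDMS against plastic held 148 such regions of 64217, which bore the names of 76 genes. Of these regions 79 were annotated as promoters, among 12568 promoter regions in all, and they belonged to 69 of the 10965 genes with a promoter region. Rpl10l, Rpl15, Rpl19, Rpl21, Rpl39l, Rps28 and Rps4l, the other 7 genes, had regions elsewhere only. Of 83 protein-coding RefSeq symbols that meet the naming rule, 75 had a region and 8 had none. The large (60S) subunit accounted for 41 of the 69 genes and the small (40S) subunit for 28.

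Primary fibroblasts came from lungs of Col1a1-GFP transgenic mice, in which a collagen promoter drives GFP, and were sorted for GFP. No other allele or treatment is named for any group. All of them were grown for 8 days on collagen I in medium with 10% serum, on 0.2 kPa PDMS (a soft silicone), on 32 kPa PDMS (a stiff one) or on tissue-culture plastic. Each surface had 2 libraries of 50000 cells, 6 in all, made by Omni-ATAC-seq, which uses a transposase to tag DNA that is not packed away in nucleosomes. Whether the libraries of a surface came from separate animals, and the age of the mice, are not given in the sources used here, so p-values reflect only how these libraries varied, and that variation may be technical.

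Ribosomal proteins assemble with ribosomal RNA into the small subunit, which decodes the messenger RNA, and the large subunit, which joins the amino acids. Their genes are transcribed at high rates in growing cells, and their products are needed in equal amounts. The messenger RNAs begin with a run of pyrimidines (the TOP motif) through which mTOR signalling controls their translation, and the same run is part of the initiator around the transcription start. ETS factors such as GABP, SP factors and YY1 are known to bind many of these promoters.

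The start sites are shown first, because the accessible regions lie over them. Promoter sequences of RefSeq (build GRCm38.p6, the assembly of mm10) were found for 55 of the 76 genes, 66 sequences in all, each running from 250 bases before to 50 after a start. Of these starts, 56 lay inside a region of the same gene. Below, 60 bases before and 30 from the start onward are given 5′ to 3′ on the gene's strand, and capitals mark a match to the initiator, ETS or YY1 letters that follow. Rpl28 (chr7:4792905-4792994, plus strand) and Rpl27a (chr7:109519135-109519224, plus) are shown as genes that were higher on 32 kPa and hold the initiator letters at the start. Rpl31 (chr1:39367791-39367880, plus), Rpl37 (chr15:5116553-5116642, plus) and Rps21 (chr2:180257319-180257408, plus) are shown as the most accessible promoters with an ETS match in this window. Rps19 (chr7:24884532-24884621, plus) had the highest level before division by length and holds none of the 3. Rps9 (chr7:3703981-3704070, plus) and Rps15a (chr7:118116118-118116207, minus) are among the 5 least accessible promoters.
Rpl28: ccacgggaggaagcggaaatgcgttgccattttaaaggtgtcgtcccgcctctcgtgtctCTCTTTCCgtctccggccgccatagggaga
Rpl27a: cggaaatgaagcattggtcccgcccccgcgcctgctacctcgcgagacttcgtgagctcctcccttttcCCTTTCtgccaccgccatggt
Rpl31: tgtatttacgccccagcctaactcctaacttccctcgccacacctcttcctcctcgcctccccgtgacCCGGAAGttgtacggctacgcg
Rpl37: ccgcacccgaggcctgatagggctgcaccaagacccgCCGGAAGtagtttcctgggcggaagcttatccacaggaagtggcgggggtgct
Rps21: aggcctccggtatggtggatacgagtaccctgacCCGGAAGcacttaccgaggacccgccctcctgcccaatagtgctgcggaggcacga
Rps19: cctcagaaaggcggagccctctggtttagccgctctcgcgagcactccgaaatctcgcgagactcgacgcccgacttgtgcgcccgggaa
Rps9: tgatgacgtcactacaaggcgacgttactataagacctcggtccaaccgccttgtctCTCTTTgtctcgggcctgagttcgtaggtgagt
Rps15a: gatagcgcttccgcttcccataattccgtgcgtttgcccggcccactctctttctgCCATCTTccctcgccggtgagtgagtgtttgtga

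The initiator was searched as any of the strings CTTTCC (pyrimidines ending on a C pair), CCTTTC (beginning with the pair) and, with a C between thymines, CTCTTT within 10 bases of the start on the gene's strand, and a sequence counted once however many of these overlapping strings it held. It was found in 13 of the 66 sequences (19.7%), against 2.21% of 11165 sequences of genes with a promoter region and 2.55% of all 32851 sequences. A string farther from the annotated start did not count, such as the ctcttt in the Rps15a sequence above. The share is therefore not that of genes with a pyrimidine run near the start. The other motifs were searched on both strands of the whole 300 bases. The ETS letters CCGGAAG stood in 37.9% of the ribosomal protein sequences, against 17.1% for genes with a promoter region and 8.86% for all. The YY1 letters AAGATGG stood in 15.2%, against 6.85% and 6.34%. SP letters (GGGCGG) were about as frequent as for genes with a promoter region, 63.6% against 64.3%, and were found in 35.7% of all sequences. The 66 sequences include those of Rpl10l, Rpl15, Rpl19, Rpl39l and Rps28, which had no promoter region, so the compared sets are not fully alike.

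Motifs of TEAD, AP-1 and SRF, factors often studied in cells on stiff surfaces, were searched as well. The TEAD and AP-1 letters were less frequent than for genes with a promoter region, and the SRF motif was about as frequent. The TEAD letters GGAATG stood in 7.58% of the sequences (12.1% for genes with a promoter region and 14.7% for all), the AP-1 letters TGAGTCA in 1.52% (3.81% and 5.2%) and the CArG box of SRF in 1.52% (1.34% and 1.63%). The E-box CACGTG, the MYC letters, stood in 12.1% (10% and 7.15%), TATAAA in 10.6% (6.7% and 13.6%) and the CREB letters TGACGTCA in 6.06% (3.22% and 1.79%). E-box matches included both sequences of Rpl19, which had no promoter region. The median GC content was 58.2%, against 61.3% and 52.7%. Sequences were found for 11 of the 15 genes listed as higher at their starts on a stiffer surface. Of these 17 sequences, 2 held the initiator, 6 the ETS and 1 the YY1 letters. Of the other 49, 11, 19 and 9 did. TEAD letters stood in 2 of the 17 and 3 of the 49, AP-1 letters in 1 and 0, and the CArG box in 0 and 1. The AP-1 match was in the sequence of the Rpl22 start at chr4:152325726. No difference between the 17 and the 49 was tested. The YY1 match among the 17, and a TEAD match, were at an upstream start of Rpl22 (chr4:152324436), outside its listed region. The overlapping Rps21 sequences each counted for ETS. Sequences of alternative starts of 1 gene can overlap, and a match describes the letters, not a bound site.

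**Figure D1:**
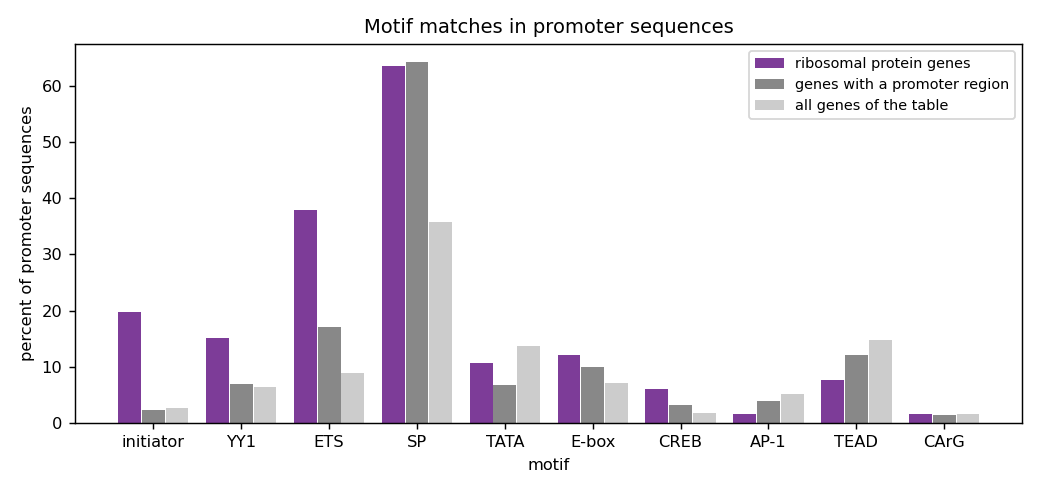
Share of promoter sequences (percent, vertical axis) that hold each motif (horizontal axis), for 66 sequences of ribosomal protein genes, for the sequences of genes with a promoter region and for all sequences of the table. The initiator (19.7% against 2.21%) and ETS bars (37.9% against 17.1%) of the ribosomal protein genes stand above those of genes with a promoter region, and the SP bars are alike.

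The deposited tables give, for each region and surface, 1 mean level in log2 normalised reads, with no value per library, so no SD can be given and the depth of each library is unknown. A level difference can come from the share of cells in which a region is open or from how open it is in each cell, and these cannot be told apart. Promoter regions were present for 8 of 9 fibroblast markers. Their levels were 3.76 to 8.82 (median 4.73) on 32 kPa and 2.97 to 8.93 (median 4.83) on plastic. None of 7 epithelial markers had a promoter region. Among 5 endothelial markers Kdr alone had one (3.08 on 32 kPa and 3.02 on plastic), and among 5 leukocyte markers Lyz2 alone (5.01 and 4.29).

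The median ribosomal protein promoter was about as open as that of all genes, and the promoters differed widely from one another. The level was divided by region length to compare genes, and the strongest promoter region of each gene was taken. The median was 7.28 log2 reads per kb on 32 kPa and 7.34 on plastic, and for all 10965 genes it was 7.29 and 7.30. Of the 69 genes, 34 on 32 kPa and 38 on plastic were above that median of all genes. On 32 kPa the lowest was 6.34 per kb, and the middle of the distribution ran from 6.77 to 7.77 (lower and upper quartile). The median was 7.36 for 40S genes and 7.18 for 60S genes on 32 kPa, and 7.38 and 7.28 on plastic.

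Among the 5 most open promoters per kb were those of Rps21 (8.54 on 32 kPa and 8.40 on plastic, above 96.1% of all genes on 32 kPa), Rpl31 (8.45 and 8.38), Rpl34 (8.42 and 8.12) and Rpl37 (8.37 and 8.57). The lowest were Rps15a (6.34 and 6.31), Rpl37a (6.39 and 7.16), Rps9 (6.41 and 6.88), Rpl5 (6.42 and 6.47) and Rpl26 (6.43 and 6.49). Rpl5 and Rpl26 are known for tying the ribosome to p53, Rpl5 by binding Mdm2 and Rpl26 by binding p53 messenger RNA. Rpl11, which binds Mdm2 together with Rpl5, stood at 7.18 and 7.32. Most neighbours in this order differed by a few hundredths, and with no spread over libraries their order cannot be told.

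**Figure D2:**
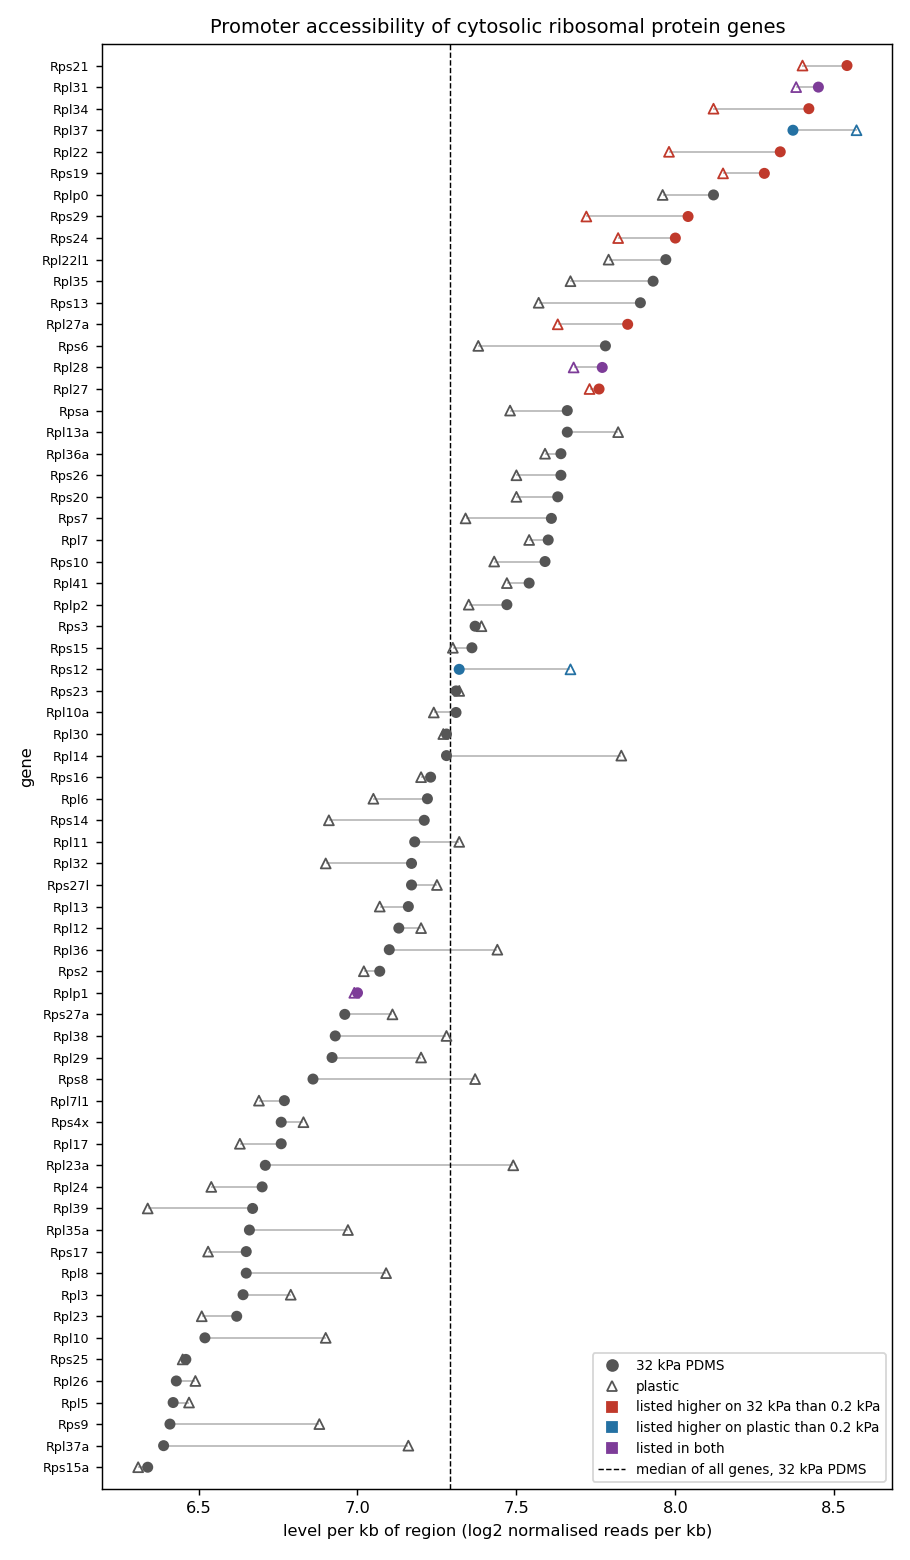
Level per kb of the strongest promoter region (log2 normalised reads per kb, horizontal axis) of 66 of the 69 ribosomal protein genes (vertical axis), with circles for 32 kPa PDMS, triangles for plastic and a dashed line at the median of all genes on 32 kPa (7.29). Coloured genes are listed as higher on a stiffer surface than on 0.2 kPa. Most of them stand in the upper part of the order, and Rplp1 stands below the dashed line.

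Against 0.2 kPa, 14 ribosomal protein regions were listed as more open on 32 kPa and 9 as more open on plastic. The authors' deposited tables of these comparisons hold listed regions only, each with a log2 fold of at least 1 and an FDR of at most 0.05, and no region in them was higher on 0.2 kPa. A level on 0.2 kPa is therefore known for listed regions alone. Below, coordinates are those of the listed interval. The level on the surface that a comparison did not use comes from the interval that shares at least 50% of both lengths in the table of 32 kPa against plastic, which can differ in length. The lowest listed level was 4.97 on 32 kPa and 4.94 on plastic, and 37 and 34 of the 79 ribosomal protein promoters lay below it. Among all regions that reached it, 12.5% were listed for 32 kPa and 11.7% for plastic.

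In the small subunit, Rps19, Rps21, Rps24 and Rps29 were among the genes higher at their starts on 32 kPa. The Rps19 protein is needed to mature the RNA of the small subunit, and its gene is the one most often mutated in Diamond-Blackfan anaemia. Its promoter region (chr7:24883926-24884692, centred 283 bases upstream of the start) stood at 6.86 on 0.2 kPa, 7.94 on 32 kPa and 7.81 on plastic. The fold for 32 kPa in the authors' deposited table was 1.07 on the log2 scale, or 2.1 times (FDR 0.00134). Rps21, whose start is printed above, had 6.45 on 0.2 kPa, 7.49 on 32 kPa and 7.35 on plastic (chr2:180257002-180257485). These were the regions with the highest levels among those listed, and their plastic levels were close below those on 32 kPa.

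Rps24, another gene of Diamond-Blackfan anaemia, stood at 4.80 on 0.2 kPa, 5.92 on 32 kPa and 5.74 on plastic (chr14:24490528-24490775). Rps29, a zinc-binding protein of the small subunit head, had 5.69 and 6.72 on 0.2 and 32 kPa (chr12:69159036-69159338), and 6.44 on plastic over a longer interval (chr12:69158940-69159351). At both the plastic level lay between the other levels, nearer to that on 32 kPa. The folds in the authors' deposited table were 1.05 for Rps21 (FDR 0.00259), 1.12 for Rps24 (FDR 0.0207) and 1.03 for Rps29 (FDR 0.00889). A region that bears the name Rps28 was listed as well (5.78 on 0.2 kPa, 6.80 on 32 kPa and 6.42 on plastic, with an FDR of 0.00922 in the authors' deposited table). It lies 6892 bases downstream of the Rps28 start, in an exon of Kank3 (chr17:33817386-33817954).

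In the large subunit, Rpl22, Rpl27, Rpl27a, Rpl28, Rpl31, Rpl34, Rpl21 and Rplp1 were higher at their starts on 32 kPa. Rpl28 had the largest fold of all 14 regions, 1.26 on the log2 scale or 2.39 times in the authors' deposited table (FDR 0.00335). Its levels were 5.15 on 0.2 kPa, 6.41 on 32 kPa and 6.32 on plastic (chr7:4792675-4793064). Rpl31, a protein near the exit of the nascent peptide tunnel, followed with 5.53, 6.75 and 6.69 (chr1:39367667-39367943), and a fold of 1.22 in the authors' deposited table (FDR 0.00315). Rpl28 and Rpl31 were thus about as open on plastic as on 32 kPa.

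Rpl27a stood at 5.60 on 0.2 kPa, 6.73 on 32 kPa and 6.53 on plastic (chr7:109518868-109519308). Rpl22, which has a paralog, Rpl22l1, that can replace it, stood at 5.85, 6.96 and 6.60 (chr4:152325580-152325977), and the region also covers the start of 9430083M05Rik. Rpl34 stood at 5.51, 6.61 and 6.31 (chr3:130730267-130730573). At Rpl22 and Rpl34 the plastic level was below that on 32 kPa by a wider gap than at Rpl28 or Rpl31. Rpl22 and Rpl34 were listed for 32 kPa alone and the other genes for both surfaces, so a wider gap is partly built in. Between 32 kPa and plastic the p-values in the authors' deposited table were 0.189 for Rpl22 and 0.298 for Rpl34, so neither gap is established. Rpl27 had the smallest fold, 1.01 in the authors' deposited table (FDR 0.0175), from 5.36 on 0.2 kPa to 6.37 on 32 kPa and 6.35 on plastic (chr11:101442084-101442462). The FDRs in the authors' deposited table were 0.00363 for Rpl27a, 0.00374 for Rpl22 and 0.00869 for Rpl34.

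Rpl21 was annotated as a 5′ UTR region centred 152 bases into the gene (chr5:146832761-146833323), with 5.21 on 0.2 kPa, 6.27 on 32 kPa and 6.25 on plastic. Rplp1, which with Rplp0 and Rplp2 forms the stalk that recruits elongation factors, had the lowest level of those listed, 4.53 on 0.2 kPa, 5.63 on 32 kPa and 5.62 on plastic (chr9:61914479-61914866). Their FDRs in the authors' deposited table were 0.022 and 0.0378. The stalk partners Rplp0 (6.38 on 32 kPa) and Rplp2 (5.26) were not listed. Over the 14 regions the median fold in the authors' deposited table was 1.08, against 1.12 for all regions listed for 32 kPa. For plastic the median was 1.12 over the 9 ribosomal protein regions and 1.12 over all listed regions.

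**Figure D3:**
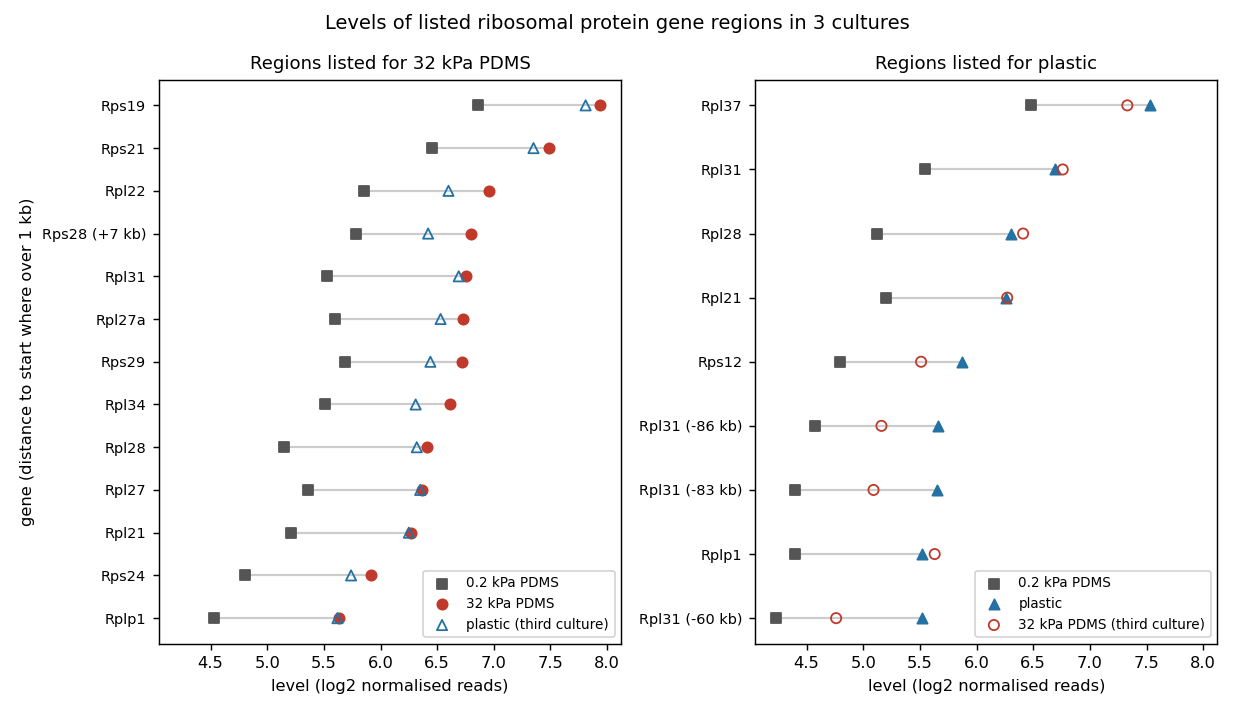
Levels (log2 normalised reads, horizontal axis) of 13 of the 14 ribosomal protein regions (vertical axis) listed for 32 kPa PDMS (left) and of the 9 listed for plastic (right), on 0.2 kPa (squares), 32 kPa (circles) and plastic (triangles), each point 1 culture mean with no error. Open symbols are the surface that the comparison did not use. In both panels each open symbol lies right of its square, and at the 3 distant Rpl31 regions it lies about midway. The squares are the 0.2 kPa levels by which the regions were selected, so this position is partly built in.

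On plastic, starts of Rpl37, Rpl31, Rpl28, Rpl21, Rplp1 and Rps12 were listed, 5 genes of the large subunit and 1 of the small. Rpl37 stood at 6.48 on 0.2 kPa, 7.53 on plastic and 7.33 on 32 kPa (chr15:5116233-5116685). It had the lowest FDR of any ribosomal protein region, 6.83e-05 with a fold of 1.05 in the authors' deposited table. It was not listed for 32 kPa, where its level set against this 0.2 kPa value was 0.85 higher. Rps12 stood at 4.79 on 0.2 kPa, 5.87 on plastic and 5.51 on 32 kPa (chr10:23787144-23787427), with an FDR of 0.0172 in the authors' deposited table. Both starts were therefore higher on 32 kPa than on 0.2 kPa by less than the fold of 1 that the tables required. These differences reuse the 0.2 kPa level by which the starts were selected for plastic. They are therefore partly built in, and no test result for them is given.

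Rpl21, Rpl28, Rpl31 and Rplp1 appear in both tables, which share the 0.2 kPa libraries. In the plastic table Rpl28 went from 5.12 to 6.30 and Rpl31 from 5.54 to 6.69, with folds of 1.18 and 1.15 in the authors' deposited table (FDR 0.00337 and 0.00168). Rpl21 went from 5.20 to 6.26 and Rplp1 from 4.40 to 5.52, with FDRs of 0.00904 and 0.0297 in the authors' deposited table. The 10 genes listed for 32 kPa but not for plastic were higher on plastic than on 0.2 kPa. The difference had a median of 0.85 and was at most 0.99. The plastic level was taken over the overlapping interval, whose length can differ (412 against 303 bp at Rps29). These regions were selected by a low 0.2 kPa level against 32 kPa, and the same 0.2 kPa value is the baseline here. A positive difference below 1 is therefore partly built in, and no test result for it is given. Absence from a list does not show that a start was unchanged on that surface, because listing required a fold of at least 1. The difference between the surfaces is tested in the comparison of 32 kPa with plastic.

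The other 3 regions listed for plastic lay far upstream of Rpl31, in introns of Npas2, a clock transcription factor gene. They were centred 59940, 82756 and 85823 bases from the Rpl31 start. At the nearest (chr1:39307722-39308100) the level was 4.23 on 0.2 kPa, 4.76 on 32 kPa and 5.52 on plastic, with a fold of 1.29 in the authors' deposited table (FDR 0.0146), the largest of the 9. The farther regions had 4.40, 5.09 and 5.65 (chr1:39284910-39285281), and 4.57, 5.16 and 5.66 (chr1:39281925-39282132), with FDRs of 0.0179 and 0.0262 in the authors' deposited table. At all 3 the 32 kPa level lay between the others. The regions were selected by a low 0.2 kPa and a high plastic level, so this order is partly built in. Between 32 kPa and plastic the p-values in the authors' deposited table were 0.096, 0.181 and 0.205, so no difference is established. These regions bear the name Rpl31 because its start is the nearest, and which gene they act on, if any, was not measured.

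On 32 kPa the share of ribosomal protein promoters that were listed was above that of all promoters, and on plastic the shares were close. On 32 kPa 12 of the 42 ribosomal protein promoter regions that reached the lowest listed level were listed, or 28.6% (exact Clopper-Pearson 95% interval 15.7% to 44.6%), against 13% of 7400 promoter regions in all. On plastic 5 of 45 were listed, or 11.1% (3.71% to 24.1%), against 10.8% of 7628. Over regions of every kind the shares were 14 of 51 (27.5%, 15.9% to 41.7%) and 9 of 57 (15.8%, 7.48% to 27.9%). Among regions of all genes they were 12.5% and 11.7%. The ribosomal protein counts include the Kank3 exon region for 32 kPa and the Npas2 intron regions for plastic. The intervals treat promoters as independent and cover counting error only. The difference between the shares on the 2 surfaces was not tested.

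The level on the stiffer surface is a side of the fold that decides listing, so a higher level among listed promoters is partly built in, and the values by level are a description. Listed ribosomal protein promoters had a median level of 6.68 on 32 kPa and a median length of 386.5 bp, and those not listed 5.94 and 301.5 bp. In the lowest tertile of promoter level on 32 kPa none of 13 ribosomal protein promoters was listed (5.39% of all promoters), in the middle tertile 2 of 10 (14.2%) and in the highest 10 of 19, or 52.6% (19.4%). On plastic the counts were 0 of 15 (6.61%), 2 of 13 (13.5%) and 3 of 17 (12.2%). Inside the interquartile range of the ribosomal protein promoters' own levels, 6 of 20 were listed on 32 kPa (30%) and 3 of 23 on plastic (13%). The shares of all promoters in those ranges were 13.7% and 13.1%.

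**Figure D4:**
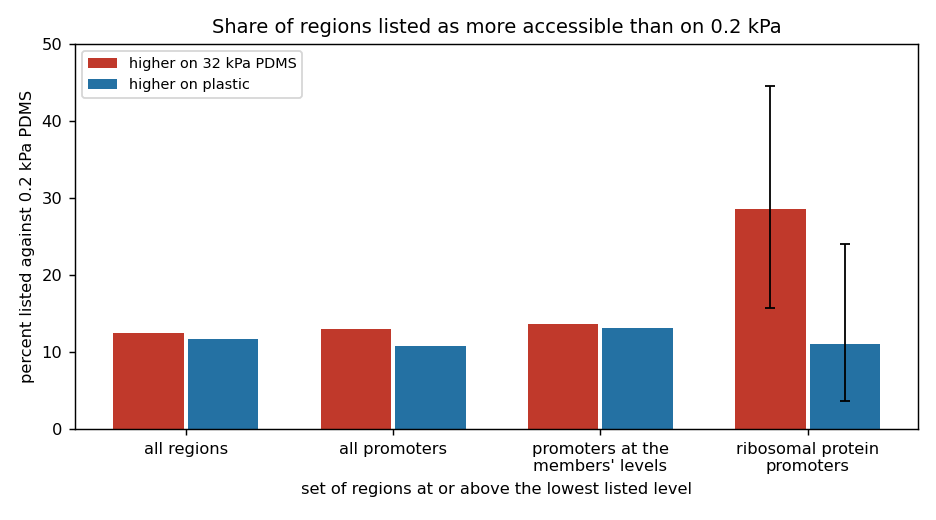
Percent of regions listed as higher than on 0.2 kPa (vertical axis) among regions that reached the lowest listed level, for 4 sets of regions (horizontal axis), with red for 32 kPa PDMS and blue for plastic. Error bars are exact 95% Clopper-Pearson intervals on the ribosomal protein promoters. On 32 kPa these stand at 28.6% against 13% of all promoters, and on plastic at 11.1% against 10.8%.

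High levels alone did not put a promoter on the list. On 32 kPa strong promoters that were not listed included those of Rpl37 (7.33), Rpl13a (6.76), Rpl22l1 (6.64) and Rpl7 (6.57). On plastic they included Rps19 (7.81), Rps21 (7.35), Rpl13a (6.92) and Rpl7 (6.51). Rpl13a and Rpl7 were thus strong on both stiffer surfaces without being listed for either. Rpsa, the laminin receptor precursor (6.33 on 32 kPa and 6.15 on plastic), and Rps6, the substrate of the S6 kinases (6.38 and 5.98), were not listed. For the promoters listed for neither surface, the level on 0.2 kPa was not analysed here.

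Between 32 kPa and plastic no ribosomal protein region differed by the authors' test. The FDR in the authors' deposited table was 1 at each of the 64217 regions, so 0 (0%) were called at an FDR of 0.05, and at an unadjusted p-value of 0.05 370 regions (0.576%) were. That share is below what a calibrated test gives at 0.05 with no difference present. The test was therefore conservative (it gave too few small p-values), and the absence of calls does not show that the surfaces were alike. Among the 148 ribosomal protein regions 1 passed that unadjusted level. It lies 589 bases upstream of the start of Rpl7l1, with a low level of 1.80 on 32 kPa and 3.73 on plastic (p = 0.0341, FDR 1 in the authors' deposited table). At the start itself Rpl7l1 stood at 4.29 and 4.21.

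At the strongest promoters the median shift was a few hundredths of a log2 unit. The median of plastic minus 32 kPa was −0.06 over the 69 genes and −0.01 over all genes, with 25 ribosomal protein genes above 0 and 44 below (5132 and 5656 of all 10965 genes). The difference lay within 0.25 for 46 genes, or 66.7% (69.1% of all genes), and within 0.5 for 64, or 92.8% (91.8%). Among the 5 promoters with the largest decreases on plastic were Rps6 (−0.40), from 6.38 on 32 kPa to 5.98, Rpl22 (−0.35), Rpl39 (−0.33) and Rps29 (−0.32). The p-value for Rps6 in the authors' deposited table was 0.208 and its FDR was 1.

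The largest positive differences were at promoters of low level. Rpl23a, a protein at the tunnel exit, stood at 4.16 on 32 kPa and 4.94 on plastic (0.78), and Rpl37a at 3.96 and 4.73 (0.77). Side regions of Rps27l, a p53-induced paralog of Rps27, differed by 1.05 (2.74 and 3.79) and 0.83 (3.13 and 3.96), while its strongest promoter region stood at 5.41 and 5.49. In the authors' deposited table the p-values of these regions were 0.107, 0.134, 0.166 and 0.272, so none of these differences is established.

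**Figure D5:**
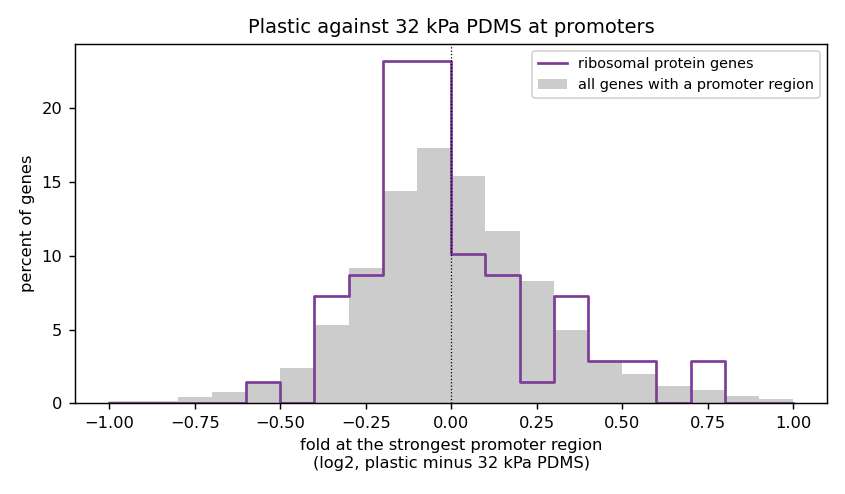
Distribution of plastic minus 32 kPa PDMS at the strongest promoter region (log2, horizontal axis, in steps of 0.1) as a percent of genes (vertical axis), for 69 ribosomal protein genes (line) and all 10965 genes with a promoter region (grey), of which 85 lie outside the plotted range. Both are centred near 0, with medians of −0.06 and −0.01.

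Of the 148 regions, 69 lay outside promoters. There were 34 intergenic and 28 intronic regions, 4 at transcript ends, and 1 each in a 3′ UTR, a 5′ UTR and an exon, and 27 of the intronic ones were in introns of a gene with another symbol. Their median level was 4.01 on 32 kPa and 4.06 on plastic, against 4.02 and 4.10 for the 41345 non-promoter regions of all genes within the same distance. Rpl31 had the most regions, 9, of which 6 were in Npas2 and 2 in Tbc1d8. Rps14 and Rps23 had 6 each, of which 2 for Rps23 were in Atg10, an autophagy gene. Rpl30, Rpl38 and Rps4l had 5 each, with 4 of those of Rpl30 in Matn2, a matrix protein gene, and all 5 of Rps4l in Tmtc1.

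The strongest of these regions bore the name Rps20. It lies 59343 bases from the Rps20 start in an intron of Lyn, a Src family kinase gene, with 7.02 on 32 kPa and 7.04 on plastic, above the Rps20 promoter itself (6.42 and 6.29). Rplp0 had 3 regions in introns of Pxn, which encodes the focal adhesion protein paxillin. They stood at 4.10, 4.29 and 4.78 on 32 kPa and at 3.87, 3.44 and 4.17 on plastic. None of the regions in Lyn or Pxn was listed against 0.2 kPa or had an unadjusted p-value under 0.05 in the authors' deposited table.

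Other genes of ribosome production and translation are given for comparison. Of 47 ribosome biogenesis genes, which encode nucleolar factors and RNA polymerase I subunits, 39 had a promoter region. On 32 kPa 8 of 29 promoters at or above the lowest listed level were listed (27.6%), and on plastic 1 of 25 (4%), against the 13% and 10.8% of all promoters. The genes for 32 kPa were Mybbp1a, Nop2, Wdr43, Gtpbp4, Nop16, Ddx10, Nop56 and Ltv1. Nop2, an RNA methyltransferase, went from 3.89 on 0.2 kPa to 5.21 on 32 kPa, a fold of 1.32 in the authors' deposited table (FDR 0.0307). Nop56, a core protein of box C/D particles, went from 5.73 to 6.77 (FDR 0.00996 in the authors' deposited table). Ltv1, a factor of small subunit assembly, was the gene listed for plastic, from 4.76 to 5.83 (FDR 0.0253 in the authors' deposited table).

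Of promoters of translation factors and other TOP genes, 2 of 29 (6.9%) were listed on 32 kPa and 2 of 27 (7.41%) on plastic. Tpt1, a TOP gene, stood at 6.32 on 0.2 kPa and 7.46 on 32 kPa (FDR 0.00205 in the authors' deposited table). The promoter of Eef1a1, the elongation factor that delivers aminoacyl-tRNA, stood at 5.97 and 7.04 (FDR 0.00334 in the authors' deposited table). On plastic Eif4ebp1, a translation repressor that mTOR inactivates, stood at 5.26 on 0.2 kPa and 6.49 (FDR 0.00145 in the authors' deposited table). Mitochondrial ribosomal proteins had 2 of 29 (6.9%) and 3 of 29 (10.3%) listed. Among 21 genes of mTOR and S6 kinase signalling, promoters of Rheb, the activator of mTOR, and Rps6kb1, an S6 kinase, were listed, the first for 32 kPa and the second for plastic (1 of 13, or 7.69%, and 1 of 15, or 6.67%). These shares are counts of promoters, and no difference between gene groups was tested.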

How the data were processed

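Omni-ATAC-seq libraries of 3 cultures, 2 each, were grouped by their labels. Alignment and peak tools in the submitters' processing notes are BWA, Picard and MACS2, with DiffBind for comparison, all without versions, and the build is mm10. Read shifting, peak merging and scaling are not given in the sources used here. Per the file headers, the deposited levels and folds are log2 means of normalised reads per culture and their differences, and each p-value and FDR was computed by the authors. Gene names, TSS distances and annotations were used as the authors deposited them, so a region bears the name of its nearest start. Reads from exons that processed pseudogene copies share could be placed on either copy, which was not tested.

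Tables against 0.2 kPa call their sides Control and Treat. At 643 intervals shared with the table that names its cultures, Control equalled the 32 kPa level, and at 653 intervals it lay 0.01 to 0.02 from the plastic level, so Treat was read as 0.2 kPa. A repeated header row (1) was dropped.

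A region of the full table counted as listed when it overlapped a listed region by at least 1 bp. Shares used regions that reached the lowest listed level. Overlaps and motif searches were tested on simulated data. No test over libraries could be run, since each culture has 1 value, and depth per library is unknown. The members and gene lists were chosen with earlier results of these data known, and the tertiles of level were added after values were seen. Named genes were those with a listed region, the 5 highest and lowest promoters per kb on 32 kPa, the 5 largest folds each way between 32 kPa and plastic and the 5 genes with the most regions. Rpl11, Rplp0, Rplp2, Rpsa, Rps4l, Rps20, some strong unlisted promoters and the genes of the other lists were named outside this rule, after their values were seen. Some genes that the rule names are not reported here by name or in figures, and remain in the counts and medians. Alternatives were another promoter definition, distance, FDR, overlap, level scale, motif strand and window, and Rpl36al as a member. The work used matplotlib 3.10.9, scipy 1.17.1, numpy 2.4.6 and pandas 2.3.3 under Python 3.11.15.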

Additional observations from a re-analysis of the deposited data

How the results depend on the processing

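Of 50 alternative values for 17 results, 12 moved beyond the main value's 95% interval over members (for counts of regions, 1.5 times), 38 did not, and no median fold changed sign. Some of these outcomes were fixed in advance. The E-box, CREB and CArG letters read the same on both strands. Between 32 kPa and plastic neither a looser FDR nor a shorter distance could call a region. Levels without division by length are on another scale, so they had to move. The tally of 12 and 38 is therefore not a measure of robustness. Among those 38, the listed share on plastic went from 11.1% to 6.33% over ribosomal protein promoters of every level, and to 6.67% at an FDR of at most 0.01. The shares of all promoters fell as well, from 10.8% to 6.56% and 5.17%. Also among the 38, the TEAD share went from 7.58% to 3.03% in the short window (14.7% and 6.94% of all sequences). The median fold went from −0.06 to −0.11 after the median of all regions was taken off. Without division by region length the median promoter level was 5.37 on 32 kPa and 5.34 on plastic (5.45 on both for all genes). At an unadjusted p-value 1 ribosomal protein region was called between 32 kPa and plastic, in place of 0. At an FDR of at most 0.01, 9 of the 14 regions stayed listed for 32 kPa and 4 of the 9 for plastic. At that FDR the listed share for 32 kPa was 19% of ribosomal protein promoters that reached the lowest listed level, against 6% of all promoters. Over all promoters whatever their level, 15.2% of the ribosomal protein promoters were listed for 32 kPa, against 7.69% of all promoters. On the gene's own strand alone the YY1 letters stood in 4.55% of the sequences (3.6% of all), the ETS letters in 24.2% (4.77%) and the SP letters in 31.8% (23.4%), so the YY1 shares were close on that strand. From 100 bases before to 50 after the start, the SP letters stood in 47% (28.8% of all), the E-box in 3.03% (4.35%), below all sequences in place of above, and the CArG box in 0% (0.776%). For the own strand and the short window, shares of genes with a promoter region were not computed. In the main search the SP share of those genes was 64.3%, against 63.6% here. These SP values therefore do not show an excess over genes with a promoter region. Leaving out each library in turn was not run, because the tables hold culture means. No paired analysis was possible because the tables hold 1 mean per culture, with no value per library. Without depth or spread per library, precision rests on the authors' FDR.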

Other observations

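Several ribosomal protein starts were covered by a region that bears the name of a neighbouring gene, so they are missing from the members. The region over the Rpl7a start was assigned to Med22, stood at 5.71 on 32 kPa and 6.06 on plastic, and overlapped listed regions of both comparisons with 0.2 kPa. The region over the Rpl18 start was assigned to Sphk2 (5.32 and 5.42) and overlapped a region listed for plastic. The region over the Rpl15 start was assigned to Nkiras1 and was among the strongest at any ribosomal protein start, 7.28 and 7.29, and was not listed. Regions over the starts of Rpl9 (assigned to Lias, 4.91 and 4.47), Rps18 (Vps52, 5.39 and 5.24), Rps27 (Rps27rt, 5.57 and 4.91) and Rps28 (Ndufa7, 4.57 and 4.81) were not listed. The listed region that bears the name Rps28 is therefore not the one over its start.

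Ribosomal protein genes that the naming rule leaves out had open starts, Rpl36al at 6.60 on 32 kPa and 6.59 on plastic, Rps3a1 at 6.12 and 6.16 and Fau at 4.98 and 4.94, and none of the 3 was listed. No region of the table used here lay over the starts of Rpl4, Rpl19, Rpl3l, Rpl32l, Rpl10l or Rpl39l. Of the strongest ribosomal protein promoters, 7 of 69 (10.1%) also covered the start of another gene, against 1504 of 10965 (13.7%) over all genes.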
